A study of Mus musculus with 6 samples.

Results

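Probes that lie inside a gene, downstream of its transcription start site, made up 199472 of the 474380 placed probes (42.0%) on a mouse promoter array hybridised with chromatin immunoprecipitated through SMAD1/5, SMAD2 or SMAD4. They were chosen as all non-control probes that the array annotation marks as inside a gene, a rule that uses the annotation and no measured value. The chromatin came from undifferentiated R1 cells, a mouse embryonic stem (ES) cell line, grown without feeders in medium with knockout serum replacement and leukemia inhibitory factor, and no group received a BMP, Activin or inhibitor treatment. Each antibody was raised against the linker of a recombinant human SMAD protein and was used for 1 biological replicate, spread over 2 arrays that carry different probes. Array 1 held chromosomes 1 to 8 and a piece of chromosome 9, and array 2 held the rest of chromosome 9, chromosomes 10 to 19 and X. The immunoprecipitate was labelled red and input DNA (whole cell extract) green on all 6 arrays, with no dye swap. The labels' extraction protocol for the SMAD2 samples names a Smad1/5 antibody, whereas their titles and the design text name SMAD2, and the name SMAD2 is kept here.

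SMAD proteins carry signals of the TGF-beta family from receptors at the cell surface to the nucleus. SMAD1 and SMAD5 are phosphorylated by BMP receptors, SMAD2 by Activin, Nodal and TGF-beta receptors, and SMAD4 is the common partner of both branches. The complexes bind short DNA elements, the SMAD box CAGAC and GC-rich motifs such as GGCGCC, and act at promoters and at enhancers, which can lie within first introns. In mouse ES cells BMP signals act through the Id genes, and Nodal signals through Lefty1, Lefty2 and Smad7.

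The inside probes belonged to 16165 genes, with a median of 12 probes per gene (from 1 to 96). Their distance inside the nearest annotated start had a median of 1260 bp, and 86.0% lay within 2500 bp. Neighbouring inside probes were 173.5 bp apart at the median, and the probes were 45 to 60 bases long with a median of 54. The remaining probes were annotated as promoter (239612), divergent promoter (16286), downstream of a gene (11094) or unknown (7916). A further 9.46% of the inside probes also lay upstream of another annotated start. Probe coordinates are those of the array annotation, for which the sources used here name no genome build. Which inside probes fall in exons and which in introns was not analysed here.

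The start-site sequences of 5 genes with called inside windows, described further on, are shown because the inside profile is read from this point. They run from 70 bases before to 30 bases after the RefSeq start (GRCm38.p6) and lie at the start site, not under the called probes, except that the Atraid and Olfr1350 windows begin close to it. Capitals mark a SMAD box (CAGAC or its reverse complement GTCTG) or the GC-rich motif GGCGCC, searched on both strands.
Trim46: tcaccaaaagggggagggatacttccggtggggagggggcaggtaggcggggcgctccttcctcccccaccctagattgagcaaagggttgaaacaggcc
Fdx2: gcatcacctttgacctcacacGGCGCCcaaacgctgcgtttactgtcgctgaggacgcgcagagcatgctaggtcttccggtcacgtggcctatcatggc
Olfr1350: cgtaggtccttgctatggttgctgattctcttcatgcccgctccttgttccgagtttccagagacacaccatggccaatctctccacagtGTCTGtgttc
Slc35e1: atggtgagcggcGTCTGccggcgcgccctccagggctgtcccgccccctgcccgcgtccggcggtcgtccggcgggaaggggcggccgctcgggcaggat
Atraid: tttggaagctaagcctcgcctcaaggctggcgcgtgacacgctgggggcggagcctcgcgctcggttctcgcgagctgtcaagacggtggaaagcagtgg
The Trim46 start (minus strand) is chr3:89244984-89245083, the first of 3 starts that RefSeq lists for the gene, the Fdx2 start (minus strand) is chr9:21073502-21073601, and the Olfr1350 start (plus strand) is chr7:6569923-6570022. The Slc35e1 start (minus strand) is chr8:72492585-72492684 and the Atraid start (plus strand) is chr5:31048570-31048669. Olfr1350 and Slc35e1 hold 1 SMAD box each, Fdx2 holds 1 GC-rich motif, and Trim46 and Atraid hold neither. Over 32851 RefSeq start windows of the same length, 20.1% hold a SMAD box and 5.53% the GC-rich motif. The GC content of the windows was 80% for Slc35e1, 65% for Atraid, 63% for Trim46, 60% for Fdx2 and 52% for Olfr1350, beside a median of 55% over all of them.

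Each value below is the log2 ratio of the immunoprecipitate to the input signal, centred on the median of all probes of its array, or 1 channel as log2 signal centred on its own array median. A value of 1 is a 2-fold difference. An SD is the spread over probes, arrays 1 and 2 are given in that order, and they are different probes rather than replicates, so no test was possible and no p-value is given. Over its local background the input of inside probes was dimmest with SMAD1/5, at 2.42 and 2.84 times at the median. It was at 8.14 and 7.54 times with SMAD2 and 5.82 and 5.50 times with SMAD4. Flagged as well above background were 75.5% and 88.9% of inside probes in the SMAD1/5 input, 90.1% and 88.2% in the SMAD2 input and 99.8% on both arrays in the SMAD4 input. These flags do not follow the same order, and those of SMAD4 come from another version of the extraction software.

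Inside genes, both the immunoprecipitate and the input were brightest next to the start site and declined over about the first 1000 bp, for all 3 antibodies. The centred input was highest in the bin from 0 to 100 bp on all 6 arrays, at 1.93 and 1.49 with SMAD1/5, 0.81 and 0.78 with SMAD2, and 0.72 and 0.61 with SMAD4. What the ratio did depended on which channel fell faster. The SMAD1/5 ratio was lowest at the start, the SMAD2 ratio was nearly level, and the SMAD4 ratio rose with distance into the gene. The SMAD1/5 and SMAD4 slopes were not particular to gene interiors. Upstream, the SMAD1/5 ratio was -0.56 and -0.55 at 0 to 250 bp, and -0.25 and -0.07 at 1000 to 1500 bp. Its input there was 1.44 and 1.06, and 0.61 and 0.26. The upstream SMAD4 ratio was -0.04 on both arrays at 0 to 250 bp and 0.14 on both at 2000 to 2500 bp.

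With SMAD1/5, the mean ratio was -0.62 ± 1.77 and -0.71 ± 1.59 (SD, n = 11528 and 11412 probes) at 0 to 250 bp inside. At 1000 to 1500 bp it was -0.14 ± 1.96 and -0.04 ± 1.75 (SD, n = 16421 and 16364). At the start the immunoprecipitate was at 0.52 and 0.29 and the input at 1.82 and 1.44. The input therefore stood further above its array median than the immunoprecipitate did. Probes within 500 bp of the start minus those at 1500 to 2500 bp gave -0.31 and -0.49 in ratio, 0.60 and 0.44 in the immunoprecipitate and 0.91 and 0.92 in the input. The ratio difference was below 0 in 21 of 21 chromosome parts, from -0.63 to -0.12, and its sign turned with another background correction (normexp), to 0.01 and 0.06.

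With SMAD2, the ratio was 0.03 ± 0.76 and 0.04 ± 0.74 (SD, n = 11354 and 11100) at 0 to 250 bp inside, and 0.02 on both arrays at 2000 to 2500 bp. Between them it had a low maximum of 0.10 on both arrays at 400 to 500 bp. The channels moved nearly together: at the start the immunoprecipitate was at 0.86 and 0.84 and the input at 0.74 and 0.73. Near probes exceeded far probes by 0.04 and 0.05 in ratio, by 0.71 on both arrays in the immunoprecipitate and by 0.67 and 0.66 in the input. The ratio difference is a small piece of the SD of a single probe (0.81 and 0.79 near the start), it was above 0 in 19 of 21 chromosome parts, and it was -0.04 and -0.05 when the mean input of the 3 antibodies replaced the SMAD2 input.

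With SMAD4, the ratio was -0.02 ± 0.90 and -0.03 ± 0.90 (SD, n = 11528 and 11413) at 0 to 250 bp and reached 0.18 ± 0.99 and 0.19 ± 0.99 (SD, n = 13403 and 13237) at 2000 to 2500 bp. The channels at the start were 0.51 and 0.46 for the immunoprecipitate and 0.64 and 0.58 for the input. Near minus far probes gave -0.14 and -0.17 in ratio, 0.55 and 0.53 in the immunoprecipitate and 0.69 on both arrays in the input. The ratio difference was below 0 in 20 of 21 chromosome parts, and was 0.04 and 0.02 once the trend of the ratio on its own input was removed.

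**Figure D1:**
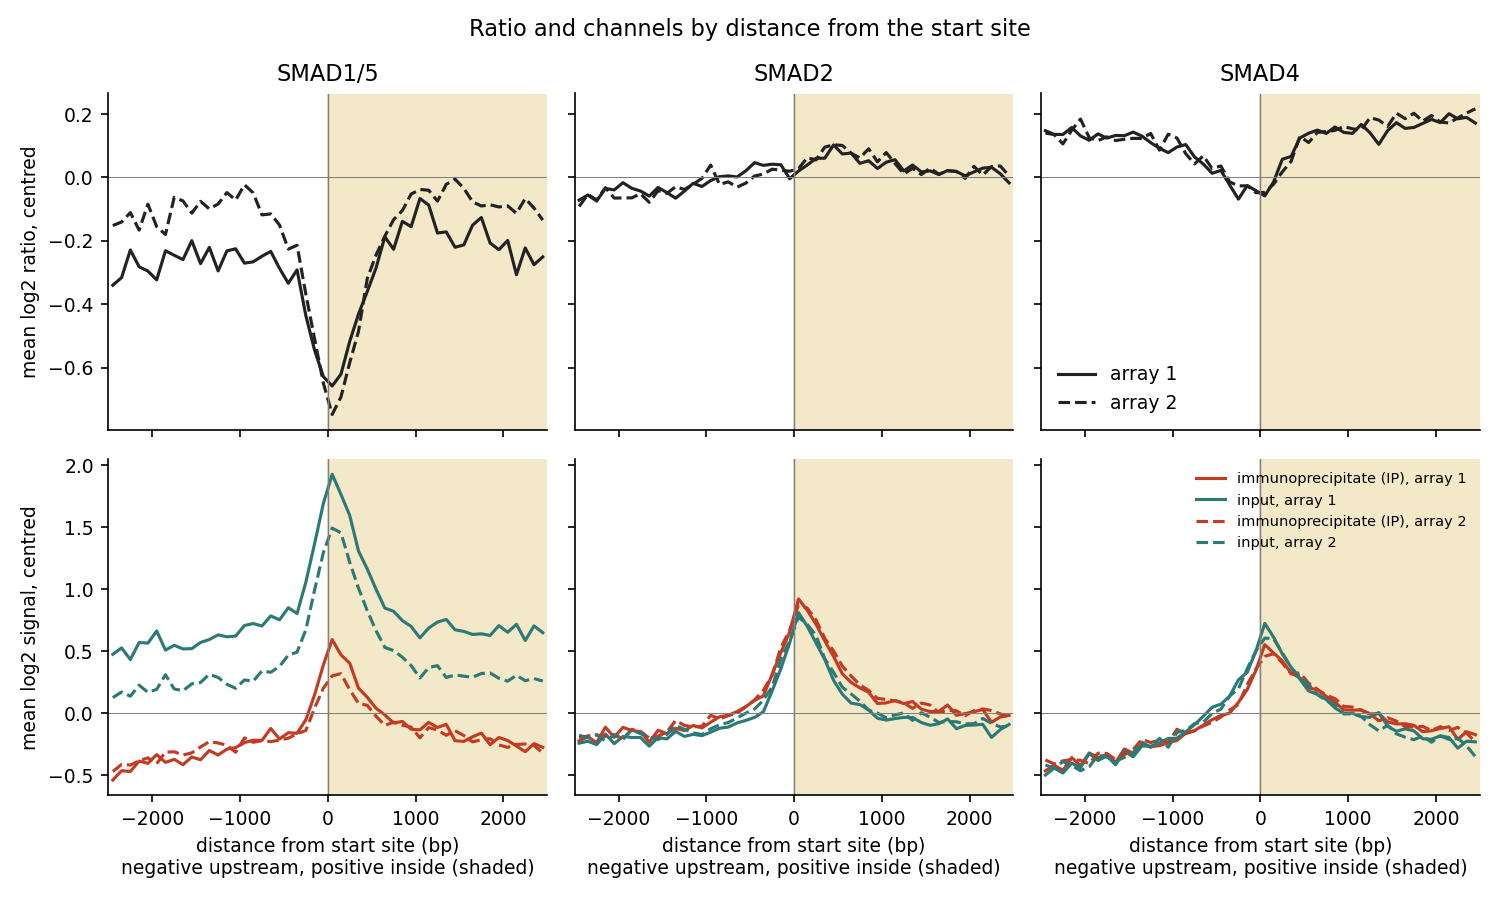
Mean log2 ratio of immunoprecipitate to input (upper row) and mean log2 signal of each channel (lower row), both centred on the array median, in 100 bp bins of distance from the start site, negative upstream and positive inside the gene (shaded). Solid lines are array 1 and dashed lines array 2; the input peaks at the start on all 6 arrays, and the SMAD1/5 ratio is lowest there, at -0.66 and -0.75.

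Set against probes upstream of the start over the same 2000 bp, the inside probes differed little in ratio. Inside minus upstream was 0.04 and -0.04 with SMAD1/5, where the arrays disagreed in sign, 0.05 and 0.07 with SMAD2, and 0.06 on both arrays with SMAD4. In the channels the inside probes were brighter, by 0.16 to 0.26 in the immunoprecipitate and by 0.17 to 0.20 in the input over the 6 arrays. They were also shorter, at 0 to 250 bp 48.5 bases on average on both arrays, against 50.4 and 50.5 upstream. The contrast of channels was not repeated within a class of probe length. A gene's mean over its inside probes said little about its mean upstream: Pearson's r was 0.06 with SMAD1/5, 0.16 with SMAD2 and 0.12 with SMAD4, over 12466, 12453 and 12467 genes whose 2 values share an array and its inputs.

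Probe length moved with the distance from the start. Of the probes at 0 to 500 bp, 59.5% and 59.9% were 45 to 48 bases long, against 19.3% and 19.6% of those at 1500 to 2500 bp. Short probes were bright: in the SMAD1/5 input of array 1, probes near the start averaged 2.41 ± 2.31 (SD, n = 13223) at 45 to 48 bases, 0.69 ± 2.14 (SD, n = 3532) at 49 to 54 bases and 0.08 ± 2.03 (SD, n = 5477) at 55 to 60 bases. Among probes of 55 to 60 bases alone, a choice made after seeing the data, the near minus far difference in SMAD1/5 input was -0.03 and -0.08, and that in SMAD1/5 ratio was 0.08 and 0.01. The decline of both SMAD1/5 channels into the gene was thus not seen among long probes.

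The other antibodies kept a piece of the profile among long probes. The SMAD2 immunoprecipitate was higher near the start by 0.15 and 0.17, its input by 0.08 and 0.09 and its ratio by 0.08 on both arrays. The SMAD4 immunoprecipitate was higher near the start by 0.25 and 0.26 and its input by 0.22 and 0.26, while its ratio differed by 0.03 and -0.01. Among the shortest probes, of 45 to 48 bases, the near minus far ratio was -0.21 and -0.36 with SMAD1/5, -0.07 on both arrays with SMAD2 and -0.30 and -0.31 with SMAD4. The sign of the SMAD2 ratio therefore differed between short and long probes. In these short probes near minus far was -0.15 and -0.14 in the SMAD2 immunoprecipitate and -0.17 and -0.19 in that of SMAD4. In the input it was -0.08 and -0.07 with SMAD2 and 0.14 and 0.12 with SMAD4. At 49 to 54 bases the immunoprecipitate gave -0.07 and -0.09 with SMAD2 and -0.03 and -0.05 with SMAD4. Both immunoprecipitates were thus higher near the start among the longest probes only.

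**Figure D2:**
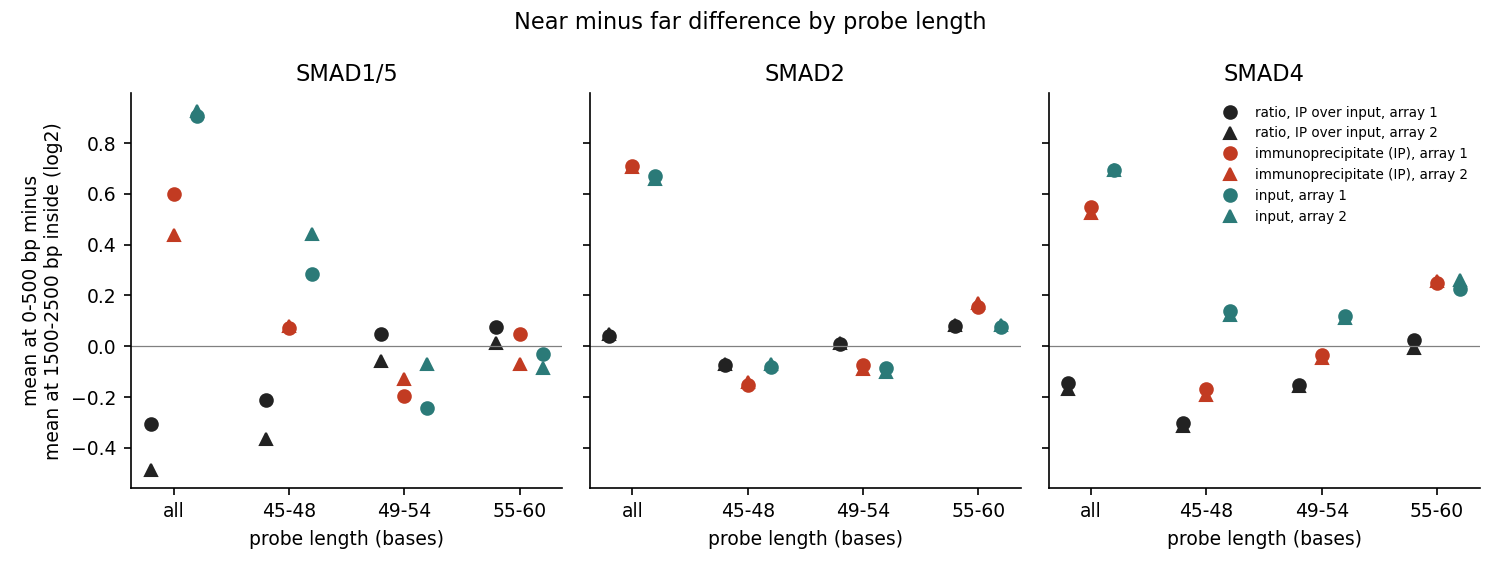
Difference between inside probes at 0 to 500 bp and those at 1500 to 2500 bp from the start (log2), for all probes and for 3 classes of probe length, in the ratio, the immunoprecipitate (IP) and the input. Circles are array 1 and triangles array 2; the SMAD1/5 input difference of 0.91 and 0.92 over all probes lies at -0.03 and -0.08 among probes of 55 to 60 bases.

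Single inside probes passed a 2-fold limit often. With SMAD1/5, 27.5% of inside probes had a log2 ratio of at least 1, beside 27.5% of all probes, and 31.3% were at -1 or lower, beside 31% of all probes. With SMAD2, 13.6% of inside probes were at least 1, beside 12.7% of all probes, and 12.2% were at -1 or lower, beside 13.5%. With SMAD4, 16.4% of inside probes were at least 1, beside 16.5% of all probes, and 9.08% were at -1 or lower, beside 10.1%. These shares lie close to those of all probes. Within the interiors they varied with distance: at 0 to 250 bp the share at least 1 was 16.9% with SMAD1/5, 8.80% with SMAD2 and 11.1% with SMAD4, and the share at -1 or lower was 43.4%, 7.67% and 11.4% in the same order. Next to the start, both shares were thus below those of all inside probes with SMAD2, whereas with SMAD1/5 and SMAD4 the upper share was below and the lower share above.

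Neighbouring inside probes shared signal mainly over short gaps. Pearson's r of the ratio between adjacent probes under 150 bp apart was 0.43 and 0.45 with SMAD1/5, 0.43 and 0.44 with SMAD2, and 0.52 on both arrays with SMAD4. At gaps of 400 to 700 bp it was 0.03 to 0.10 over the 6 arrays (5614 to 5986 pairs each). Between antibodies, the ratios of the same inside probe correlated at 0.02 to 0.06, whereas the immunoprecipitate channels correlated at 0.59 to 0.80 and the inputs at 0.40 to 0.54, over 96777 to 100684 probes that share sequence and base composition.

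To find stretches of several probes, all probes within 500 bp of an inside probe were averaged, with at least 3 probes. Each mean was turned into a z by subtracting the array's median window and dividing by a robust SD of windows lower than it. Windows with z of 4 or more, and 2 or more probes beyond the 95th percentile of the array, count here as enriched, and the mirror image of that rule defines low windows. That limit stood at a log2 ratio of 4.61 and 4.17 with SMAD1/5, 2.29 and 2.23 with SMAD2, and 2.30 and 2.29 with SMAD4, so SMAD1/5 windows had to be far higher to be called. A z is a scaled distance from the median window of 1 array and carries no error from a repeat.

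With SMAD1/5, no inside window of 187550 was called enriched, beside 0% of all windows, and 338 were low, beside 0.199%. No gene had an enriched inside window (0% of 15696 genes) and 178 genes had a low one (1.13%). These counts rest on the processing: genes with an enriched window numbered 324 with normexp, 13 with the authors' log2 values, 9 with loess and 3 with the mean input of all antibodies, and genes with a low window 1235, 577, 206 and 12 in the same order. The highest windows reached a z of 2.98 in Timm21, part of the mitochondrial inner membrane translocase, and in Prrc2a, a proline-rich coiled-coil protein, and 2.97 in Fbxo16, an F-box protein. They were followed by Rabep1, an endosomal Rab5 effector, at 2.90, Psma6, a proteasome subunit, and Slc25a11, the mitochondrial oxoglutarate carrier, at 2.85 each, Camk2g, a calmodulin-dependent kinase, at 2.81 and Slc52a2, a riboflavin transporter, at 2.79. These windows had mean ratios of 2.89 to 3.08, and none was called.

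In the 4 lowest SMAD1/5 windows, the input of every probe was further above its array median with SMAD1/5 than with SMAD2 or SMAD4. In Gnat1, the alpha subunit of rod transducin, the 3 probes at 2071 to 2362 bp inside the start (chromosome 9, 107406653 to 107406990) had SMAD1/5 ratios of -5.50, -7.97 and -6.84. Their SMAD1/5 input was 6.19, 6.27 and 6.21, against mean inputs of 0.86 with SMAD2 and 0.64 with SMAD4, and the mean immunoprecipitate was -0.99 with SMAD1/5, 0.27 with SMAD2 and 1.15 with SMAD4. Its z was -6.27, ahead of -6.21 in Prodh2, a hydroxyproline dehydrogenase of mitochondria, -6.17 in Enox1, a cell surface oxidase, and -5.98 in Atraid, a protein first described as induced by retinoic acid.

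Prodh2 had ratios of -7.99, -7.96, -8.07 and -6.55 on 4 probes with an input of 9.13 on average, where the other inputs reached 3.38 with SMAD2 and 2.26 with SMAD4, and Enox1 had ratios from -7.72 to -3.43 on 6 probes. In Atraid the window held 2 inside probes and 1 probe of the divergent promoter, with ratios of -8.86, -6.96 and -6.27. Since these 4 windows were picked by a low SMAD1/5 ratio, the distance of that ratio from the SMAD2 and SMAD4 ratios is no separate result. Over the 331 low SMAD1/5 windows measured with all antibodies, the input minus the mean of the other inputs had a median of 5.51, and the immunoprecipitate minus the mean of the other immunoprecipitates one of -0.16. The input difference was the larger one in 326 of them. Of all 338 low windows, 93.8% lay in the highest quintile of their array's input, beside 22.4% of all inside windows. When the mean input of all antibodies was used, 12 genes had a low window, 4 of them among the 178. A bright SMAD1/5 input was favoured by the call, which used the ratio to that input, so its frequency in low windows is no separate result. The part of the bright input in these calls was not tested.

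With SMAD2, 6 of 183961 inside windows were enriched, beside 0.0052% of all windows, and 29 were low, beside 0.0206%. They lay in 4 genes (0.0255% of 15680) and 19 genes (0.121%), counts that were 1 and 6 with normexp, 1 and 36 with loess and 2 and 198 with the mean input of all antibodies. Among the 4 were Ilk, the integrin-linked kinase of focal adhesions, with z of 4.92, Slc35e1, a solute carrier, with 4.17 and Rbm8a, a core subunit of the exon junction complex, with 4.04. In Ilk the 5 probes at 2591 to 3239 bp inside (chromosome 7, 101796096 to 101796797) had SMAD2 ratios of 7.79, 2.35, 2.19, 0.46 and 1.27. A single probe, with an immunoprecipitate of 5.45 and an input of -2.43, stood far above the rest. The same probes had ratios from 1.16 to 2.05 with SMAD1/5, within the range of the SMAD2 values, and from -0.60 to 0.39 with SMAD4.

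The Slc35e1 probes were even, at 2.14, 2.88 and 2.14 with SMAD2 (against 1.10, 2.20 and 1.03 with SMAD1/5 and -0.13, -0.77 and -0.98 with SMAD4), with immunoprecipitate values of -0.59, 0.23 and -0.29 and inputs of -2.83, -2.74 and -2.52. Rbm8a joined 1 inside probe at 1.77 with 2 promoter probes at 3.07 and 2.10, and its inputs were -2.32, -2.17 and -2.48. The Rbm8a immunoprecipitate was -0.46, 0.99 and -0.29, highest at the probe with the ratio of 3.07. In every probe of both genes the input lay below its array median, and further from it than the immunoprecipitate did. Across 6 other ways of processing, Ilk was past 4 in 5, and Slc35e1 and Rbm8a were past it in 0 of the 5 that gave a value.

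Rbbp9, a serine hydrolase that binds the retinoblastoma protein, Fut4, a fucosyltransferase, and Gpat4, a glycerol-phosphate acyltransferase, had z of 4.82, 4.63 and 4.59 but fewer than 2 probes past the 95th percentile, and were not called, and Ccdc125 had 3.98. Their probe SDs of 3.46, 4.36 and 4.11 over 3 probes exceeded their means of 2.76, 2.65 and 2.63. The lowest SMAD2 windows were in Ndufa5, a subunit of respiratory complex I, with z of -5.30, Anxa7, an annexin, with -5.16, Upp2, a uridine phosphorylase, with -4.63 and Dsc3, a desmosomal cadherin, with -4.53. In Ndufa5 the probe ratios were -2.41, -3.59 and -2.90 with SMAD2, 0.57, 1.20 and -0.25 with SMAD1/5, and 2.73, 1.74 and 1.49 with SMAD4. The same stretch was thus low with SMAD2 and above the array median with SMAD4. With the mean input of all antibodies none of these 4 low windows was past -4, at z of -2.41 in Ndufa5, -2.24 in Anxa7, -2.42 in Upp2 and -2.11 in Dsc3. Upp2 was past it in 3 of 6 other ways of processing and Dsc3 in 3 of 5.

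With SMAD4, 295 of 187566 inside windows were enriched, beside 0.187% of all windows, and 1 was low, beside 0.00279%. Inside windows were enriched in 0.157% of cases, against 0.219% upstream of starts. Genes with an enriched inside window numbered 160 (1.02% of 15696), and the 1 gene with a low window (0.00637%) was Runx1, a transcription factor of blood formation, with z of -4.08. Runx1 was past -4 in 3 of 6 other ways of processing, and not with normexp (-3.89), the mean input (-1.62) or the input trend removed (-3.96). Genes with an enriched window numbered 35 with normexp, 68 with loess and 47 with the authors' log2 values. The share of enriched windows was 0.0707% at 0 to 250 bp and 0.369% at 2000 to 2500 bp, where windows held 4.20 probes on average, against 5.31 near the start.

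The highest SMAD4 window was in Trim46, which organises microtubules in the axon, at 1189 to 1525 bp inside the start (chromosome 3, 89370060 to 89370449). Its 3 probes had ratios of 3.58, 3.66 and 4.00 with SMAD4, against 0.33, 0.23 and 0.78 with SMAD1/5 and 0.89, 0.72 and 1.69 with SMAD2. The SMAD4 values, by which the window was picked, had a mean of 3.74 ± 0.22 (SD, n = 3 probes) and z of 6.58. In the same probes the SMAD4 immunoprecipitate was 0.80, 2.02 and 0.80 and the SMAD4 input -2.67, -1.53 and -3.08. Minus the mean of the other antibodies, the window's immunoprecipitate was 1.17 and its input -1.98. Trim46 was past 4 in 6 of 6 other ways of processing, and with either the mean input or the removal of the input trend it was the 1 SMAD4 gene left.

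Next came Tg, which encodes thyroglobulin, with z of 5.63, Gimap4, a GTPase of lymphocytes, with 5.56, Rap2c, a Ras-related GTPase, and Alox12, an arachidonate lipoxygenase, with 5.46 each, Fdx2, a mitochondrial ferredoxin, with 5.34, Clpb, a mitochondrial disaggregase, with 5.32 and Rgn, which encodes regucalcin, with 5.27. Tg had SMAD4 ratios of 2.74, 3.76 and 3.07, with immunoprecipitate values of 0.68, 0.18 and 0.33 and inputs of -1.96, -3.48 and -2.64. Rgn, on chromosome X, was high over 7 probes from 515 to 1308 bp inside, with ratios from 2.16 to 3.48 with SMAD4, against -1.56 to 1.34 with SMAD1/5 and -2.43 to 0.59 with SMAD2. Its mean input was -3.88 with SMAD4, against -1.43 with SMAD1/5 and -0.31 with SMAD2. In these 8 genes the SMAD4 input was low, at mean values from -4.51 in Rap2c to -2.23 in Fdx2, while the immunoprecipitate was between -1.51 in Rap2c and 1.21 in Trim46.

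The enriched SMAD4 windows had this pattern as a group. Over the 287 measured with all antibodies, the immunoprecipitate minus the mean of the others had a median of 0.12 and the input minus the mean of the others one of -2.43, and the input difference was the larger in 278. Of all 295, 84.7% lay in the lowest quintile of their array's SMAD4 input, against 16.2% of all inside windows. Windows of 3 probes made up 31.5% of them, against 11.9% of all inside windows, and 14.6% were on chromosome X, against 3.61%. The part of dim input, few probes and chromosome X in these calls was not tested.

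**Figure D3:**
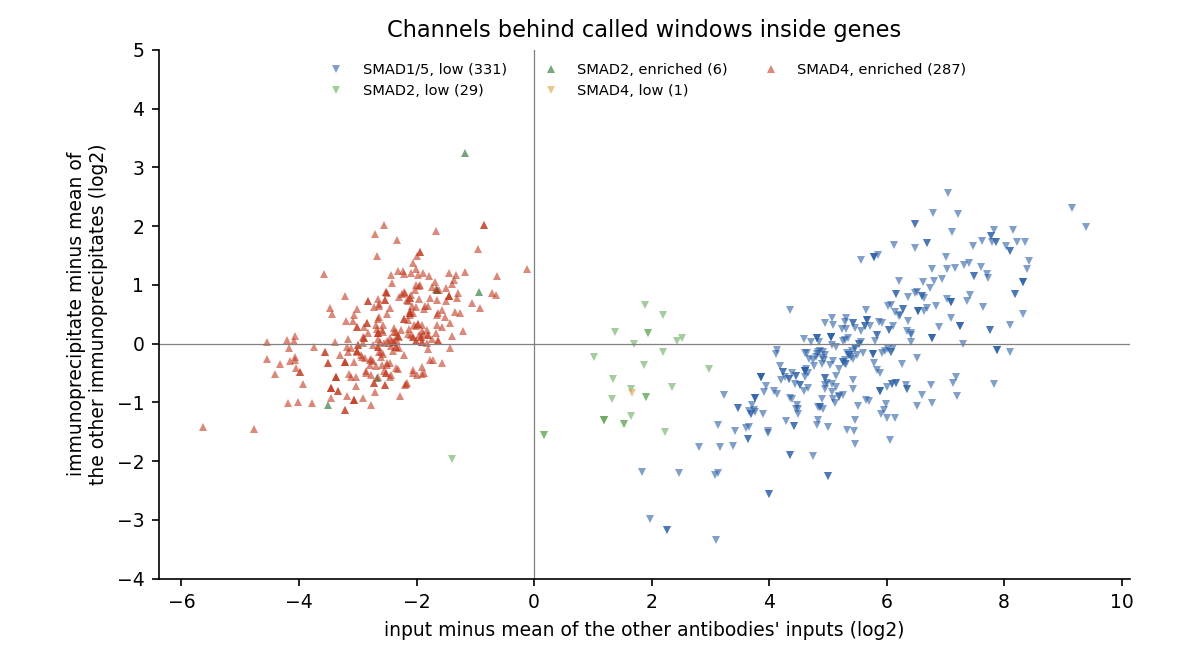
Each called inside window by its input minus the mean of the other antibodies' inputs (x axis, log2) and its immunoprecipitate minus the mean of the other immunoprecipitates (y axis, log2), for windows measured with all antibodies. The 287 enriched SMAD4 windows lie to the left, with a median input of -2.43, and the 331 low SMAD1/5 windows to the right, with a median input of 5.51.

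**Figure D4:**
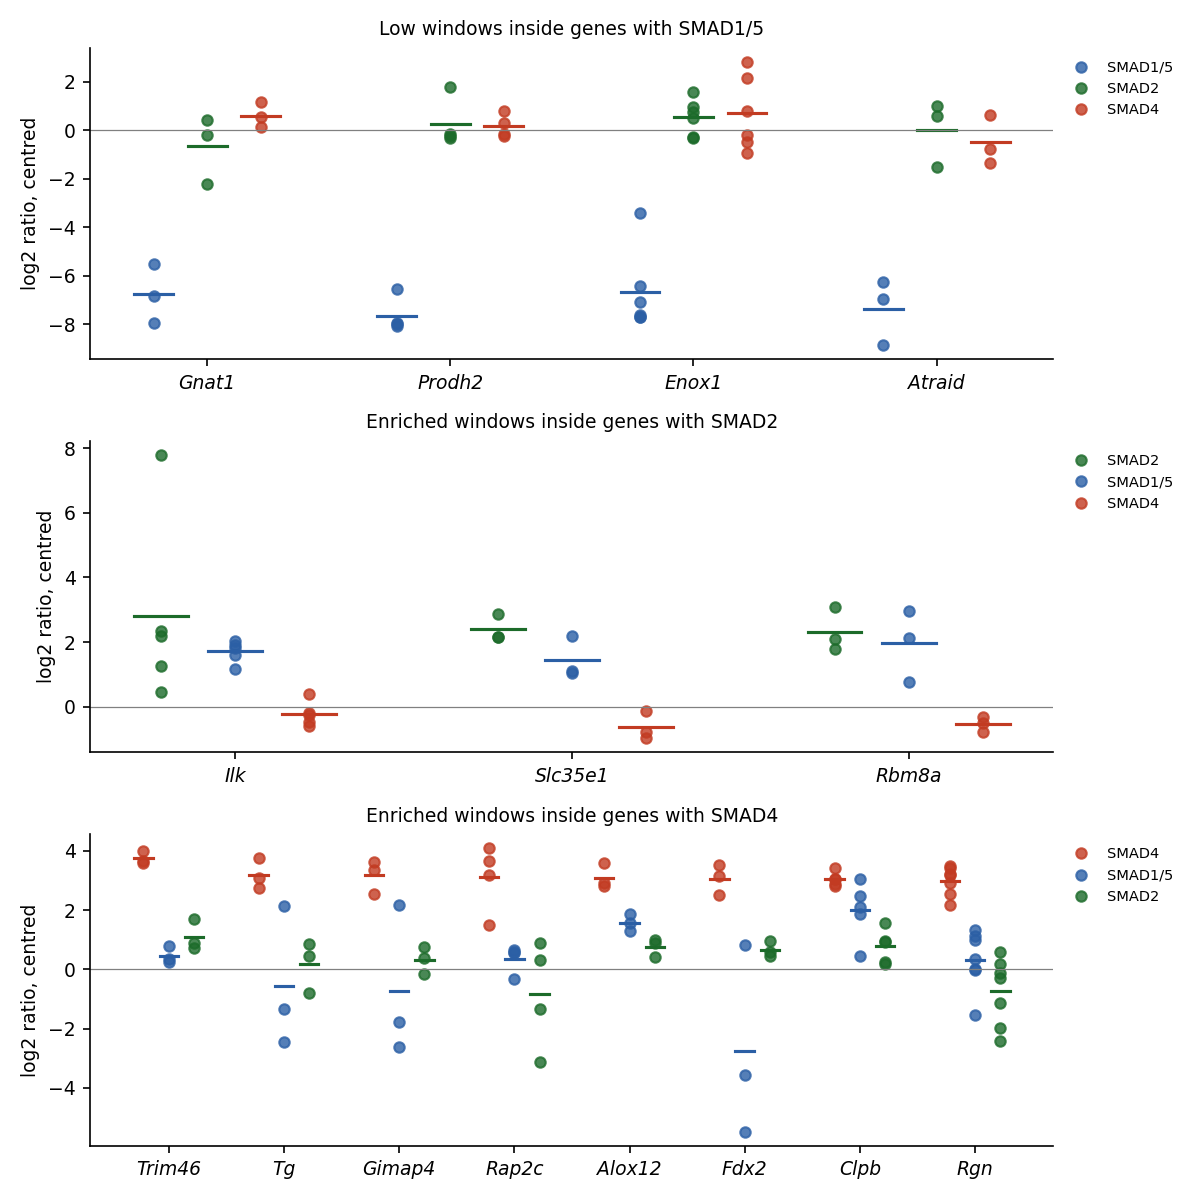
Log2 ratio of every probe (points) and its mean (bars) in selected low SMAD1/5, enriched SMAD2 and enriched SMAD4 windows among those with the most extreme z, each with all 3 antibodies. In Trim46 the 3 SMAD4 probes lie between 3.58 and 4.00, and in Ilk 1 SMAD2 probe at 7.79 lies above the other 4.

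Averages over all inside probes of a gene gave other names. With SMAD1/5 the highest, among genes with at least 6 probes, were Dnajb8, a testis chaperone, at 2.23 ± 0.92 (SD, n = 6 probes), Ccdc54 at 2.20 ± 1.36 (SD, n = 7), Cdca8, the chromosomal passenger borealin, at 2.15 ± 1.06 (SD, n = 8), Olfr11 at 1.98 and Il19, a cytokine, at 1.96. With SMAD2 they were Wap, the whey acidic milk protein, at 1.70 ± 0.59 (SD, n = 8), Ppfibp2, a liprin, at 1.47 ± 0.64 (SD, n = 13), Rbbp9 and Nhp2, a small nucleolar RNP protein, at 1.39 each and Flcn, folliculin, at 1.34. With SMAD4 they were Llcfc1, a sperm protein needed for fusion with the egg, at 2.23 ± 1.15 (SD, n = 7), Rgn at 2.22 ± 1.28 (SD, n = 14), Epb41l2, a membrane skeleton protein, at 1.99, Klk6, a serine protease, at 1.95 and Guca1a, a guanylate cyclase activator, at 1.93. Apart from Dnajb8 in SMAD2 and SMAD4 (0.86 each), Ccdc54 in SMAD4 (1.04) and Flcn in SMAD1/5 (1.15), the means of these genes with the other antibodies were all at or below 0.77. None of the SMAD1/5 or SMAD2 genes in this group had a called window with that antibody.

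None of 22 listed targets of the BMP branch had an enriched inside window, beside 0%, 0.0255% and 1.02% of all genes with SMAD1/5, SMAD2 and SMAD4, so a count of 0 does not set this list apart. The 22 listed BMP target genes with at least 3 inside probes had a median gene mean of -0.42 with SMAD1/5, beside -0.20 over all genes, 0.16 with SMAD2, beside 0.06, and -0.02 with SMAD4, beside 0.11. The SMAD1/5 median was lower still in the ectoderm and neural list (-0.67) and the pathway components (-0.46). Probes of the BMP targets averaged 51.7 bases, beside 53.4 for all genes. The Activin, Nodal and TGF-beta list, also at 51.7 bases, stood at -0.18. The part of probe length was not tested. Msx2, a homeobox gene, had the 1 called window of the list, a low SMAD1/5 one with z of -4.18, beside 1.13% of all genes. Id1, an inhibitor of basic helix-loop-helix factors, averaged -1.25 ± 3.71 with SMAD1/5, 0.30 ± 1.02 with SMAD2 and 0.47 ± 0.95 with SMAD4 (SD, n = 6 probes). Id2 and Id3 averaged 0.79 and -0.55 with SMAD1/5, -0.24 and 0.23 with SMAD2, and -0.60 and -0.25 with SMAD4. The highest z of the list were 1.81 in Gata3, a transcription factor of trophoblast and ectoderm, with SMAD1/5, 3.22 in Dlx3, a homeobox gene, with SMAD2 and 3.28 in Grem1, a BMP antagonist, with SMAD4, all short of 4.

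In the Activin, Nodal and TGF-beta branch, 20 listed genes were measured and 0 had a called inside window of either kind. Over all genes the share was at most 1.13% for any antibody and direction, so a count of 0 does not set this list apart. Their median gene mean was -0.18 with SMAD1/5, 0.09 with SMAD2 and -0.06 with SMAD4, beside the -0.20, 0.06 and 0.11 of all genes. Lefty1, a secreted Nodal antagonist, averaged 0.47 ± 1.12 with SMAD1/5, 0.41 ± 0.79 with SMAD2 and 0.39 ± 0.81 with SMAD4 (SD, n = 11 probes). It had the highest SMAD2 z of the list at 2.10, from 3 probes at 1.18 to 1.26 near 1379 bp inside. Lefty2 averaged 0.34, -0.22 and -0.32, Nodal 0.28, 0.39 and -0.18, and Smad7, the inhibitory SMAD that both lists hold, -1.01, -0.03 and 0.25, with SMAD1/5, SMAD2 and SMAD4 in that order.

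Of the components of the pathway, 24 genes were measured, with 0 enriched windows and 1 low SMAD1/5 window, in Fst, an Activin-binding antagonist, with z of -4.25 (a gene named here after its value was seen). Over all genes 1.13% had such a low window and at most 1.02% an enriched one, so counts this small do not set the list apart. Acvr2a, a type II Activin receptor, had a SMAD4 z of 3.25 that was not called. Smad4 itself averaged 0.27 ± 1.47 with SMAD1/5, -0.72 ± 0.74 with SMAD2 and 0.13 ± 0.98 with SMAD4 (SD, n = 11 probes). Of 24 pluripotency genes, 0 had a called window. Pou5f1, which encodes Oct4, averaged -0.17 ± 1.90 with SMAD1/5, 0.34 ± 0.74 with SMAD2 and -0.15 ± 0.48 with SMAD4 (SD, n = 11 probes), and Sox2 averaged -1.12, -0.01 and -0.29 in the same order. Single probes of these genes spread more widely than the gene means lay from 0.

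Among 26 chromatin regulators, 1 had an enriched window: Kdm6a, an X-linked demethylase of histone H3 lysine 27, with a SMAD4 z of 4.55. Over all genes 1.02% had one. Its 3 probes averaged 2.60 ± 1.36 with SMAD4 (SD), and their SMAD4 input minus the mean of the other inputs was -4.18. Its autosomal relative Kdm6b had z of 1.75, 0.96 and 1.27, and Ezh2, the methyltransferase that sets the mark, 1.31, -0.53 and 0.42, with SMAD1/5, SMAD2 and SMAD4 in that order. Dpysl2, a neuronal protein of the ectoderm list, had a SMAD4 z of 3.44. The lists of mesoderm and endoderm, ectoderm and neural, cell cycle, housekeeping and Hox genes held 0 called windows with any antibody, with 23 to 33 genes in each and at most 1.13% called over all genes.

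Large gene families were described apart. Of 497 olfactory receptor genes with inside windows, 6 had an enriched SMAD4 window, close to the 1.02% of all genes, and they were led by Olfr1350 with z of 4.85, Olfr829 with 4.78 and Olfr1346 with 4.48. Their median SMAD4 gene mean was 0.29, beside 0.11 for all genes, and their median SMAD4 input was -0.39, beside 0.12. The vomeronasal receptor genes, with no enriched window among 49, had a median SMAD4 gene mean of 0.25 and a median SMAD4 input of -1.27. Both families have long probes, at 56.0 and 58.5 bases on average beside 53.4 for all genes. Ribosomal protein genes had a median SMAD4 gene mean of -0.14, a median SMAD4 input of 0.84 and no enriched window among 81. At 1.02% of all genes, neither count of 0 sets its family apart. With SMAD1/5, low windows lay in 2 olfactory receptor genes, 1 vomeronasal receptor gene and 1 ribosomal protein gene, Rpl27a, with z of -4.97 (also named after its value was seen). Over all genes 1.13% had such a window, so counts this small are not read as a trait of these families. Replication-dependent histone genes had no called window among 22, beside at most 1.13% of all genes for any antibody and direction. Their median gene means were -0.12 with SMAD1/5, -0.13 with SMAD2 and -0.08 with SMAD4 over 12 genes.

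Differences between chromosomes in ratio were small beside the spread of probes, with X at one end. Inside probes on X averaged -0.56 with SMAD1/5 and -0.08 with SMAD2, the lowest of the 21 chromosome parts for both, and 0.27 with SMAD4, the highest. The medians over all parts were -0.24, 0.04 and 0.13 in the same order. Single channels differed more between chromosomes. On array 2 the SMAD4 input averaged -1.14 on X and 0.73 on chromosome 11, and the SMAD1/5 immunoprecipitate -1.12 and 0.50. The immunoprecipitate and the input were higher near the start than far from it in 21 of 21 parts with every antibody.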

How the data were processed

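Immunoprecipitate (Cy5, red) and input (Cy3, green) were read on 6 two-colour Agilent promoter arrays, 2 for each of 3 antibodies. The deposited intensity columns hold, for every spot, a mean and a background reading of both colours and a processed value. This processed intensity had background removed and the dyes balanced before deposit, per the file headers, by Agilent Feature Extraction, in version 9.1.3.1 with a copy number protocol for SMAD1/5 and SMAD2 and in version 9.5.3.1 with a ChIP protocol for SMAD4, so the SMAD4 arrays differ from the others in software as well as antibody. Flag columns of 0 or 1 come from the same step, per the file headers. The authors also deposited log2 values per probe, and the submitters' processing notes list limma as a tool, with no steps; these values correlated with the log2 ratio of the same array at 0.74 to 0.96 over inside probes, and their exact centring is unknown. Log2 processed red over green was centred on the array median after control and outlier spots were left out (0.0071% to 1.98% of inside probes). Alternatives were normexp (offset 50) and loess (span 0.3) in limma 3.58.1 under R 4.3.3; the rest used pandas 2.3.3 and numpy 2.4.6 under Python 3.11.15. The number of arrays limits the precision.

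A probe took the smallest distance inside any start that its annotation lists. Gene names were updated through RefSeq: 15400 by accession, 321 by symbol and 281 by older symbol, and 197 were kept as given. A gene mean needed 3 probes. Window calling was run on simulated data, with no result given here. No rate of false calls in the measured data is drawn from that run. The members, gene lists and tests were chosen with earlier results of these data known. The genes named are, for each antibody, the 8 highest and 4 lowest by z and the 5 highest by gene mean, all members of both target lists where values are shown, 7 genes of earlier interest and up to 3 more from each other list. Results are given in full for a selection of them. A split by promoter CpG content was void, because 12601 of 16165 genes (78.0%) matched a RefSeq promoter. Start-site sequences are RefSeq's (GRCm38.p6). Results for some genes are not reported here.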

Additional observations from a re-analysis of the deposited data

Results flagged for a closer look

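The near minus far difference in log2 ratio inside genes had the opposite sign with SMAD2 to that with SMAD1/5 and SMAD4 on both arrays. With SMAD1/5 it was -0.31 and -0.49 on arrays 1 and 2, and with SMAD2 it was 0.04 and 0.05, so that SMAD1/5 minus SMAD2 was -0.44 over the mean of both arrays. With SMAD4 it was -0.14 and -0.17, and SMAD2 minus SMAD4 was 0.20. Neither difference was tested, since each antibody has 1 biological replicate. Input brightness, probe length and, for SMAD4, the extraction software moved with these differences. With the trend of each ratio on its own input removed, the values over both arrays were 0.019 with SMAD1/5, 0.17 with SMAD2 and 0.030 with SMAD4, all above 0. On single arrays SMAD1/5 was then 0.11 and -0.07, so on array 2 its sign was still opposite to that of SMAD2 (0.16 and 0.17). With the mean input of all antibodies the values over both arrays were -0.24, -0.046 and -0.22 in the same order. All were below 0 on each array as well, so the opposite signs were not seen under that setting. Among probes of 55 to 60 bases they were 0.044, 0.081 and 0.010, and among bright probes -0.42, 0.066 and -0.16. The part of the extraction software was not tested.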

How the results depend on the processing

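The ratio results, the channel results and the counts of genes were each recomputed under the settings that apply to them. Loess, the authors' values, the mean input, the input trend and means over genes were run for ratios and not for single channels; medians, means over genes and long probes were not run for counts of genes. A ratio or channel value is given where it moved by more than the gap between arrays or 0.1 log2, whichever is larger, and a count of genes where it moved by over 1.5 times. That limit compares numbers only, and the genes behind a steady count could change. Of 206 low SMAD1/5 genes with loess, 95 were among the main 178. With windows of 300 bp on each side, 80 of 179 enriched SMAD4 genes and 4 of 22 low SMAD2 genes were main ones. With bright probes 148 of 158 enriched SMAD4 genes were. Values are means of both arrays for near minus far, beside -0.40, 0.04 and -0.16 in ratio, 0.52, 0.71 and 0.54 in the immunoprecipitate and 0.92, 0.66 and 0.69 in the input, for SMAD1/5, SMAD2 and SMAD4. Of the 18 main results, 128 recomputed values stayed within those limits, 68 moved and 8 turned their sign. The arrays differed in sign for 3 of the 8: the SMAD1/5 ratio with the input trend removed, and the SMAD4 ratio and SMAD1/5 immunoprecipitate with long probes. The cause was not tested for any of them.

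With normexp the SMAD1/5 ratio turned to 0.038, the SMAD4 ratio was -0.055, the SMAD1/5 immunoprecipitate 0.29, and the inputs 0.25 (SMAD1/5), 0.55 (SMAD2) and 0.51 (SMAD4). Enriched genes were 324, 1 and 35 and low genes 1235, 6 and 0, in the same antibody order. With loess the SMAD1/5 ratio was -0.16, enriched genes were 9, 1 and 68, and low genes 36 (SMAD2) and 6 (SMAD4). With the authors' log2 values the SMAD1/5 ratio was -0.13, enriched genes were 13, 2 and 47 and low genes 577, 32 and 2. With the mean input of the 3 antibodies the SMAD2 ratio turned to -0.046, enriched genes were 3, 2 and 1 and low genes 12, 198 and 29. With the own-input trend removed the ratios were 0.019 (SMAD1/5, turned), 0.17 (SMAD2) and 0.030 (SMAD4, turned), enriched genes were 1 (SMAD2) and 1 (SMAD4) and low genes 3, 2 and 49.

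With probes of 55 to 60 bases, chosen after seeing the data, the ratios were 0.044 (SMAD1/5, turned) and 0.010 (SMAD4, turned), the immunoprecipitate values -0.012 (SMAD1/5, turned), 0.16 and 0.25, and the inputs -0.056 (SMAD1/5, turned), 0.081 and 0.24; inside minus upstream in SMAD1/5 ratio was 0.12. With bright probes the immunoprecipitate values were 0.31 (SMAD1/5) and 0.59 (SMAD2), the inputs 0.73 and 0.52, and the enriched SMAD2 genes 2. With medians in place of means the SMAD1/5 ratio was -0.73 and its input 1.10. With 0 to 250 against 2000 to 2500 bp the SMAD2 immunoprecipitate was 0.85 and the inputs 1.16, 0.83 and 0.84.

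With probes annotated to 1 start, enriched genes were 1 (SMAD2) and 106 (SMAD4) and low genes 112, 8 and 0. With inside probes alone in the window, low genes were 41 (SMAD2) and 2 (SMAD4). With windows of 1000 bp on each side, enriched genes were 8 (SMAD2) and 101 (SMAD4) and low SMAD4 genes 3; with 300 bp, low SMAD4 genes were 0. At z of 5, enriched genes were 0 (SMAD2) and 20 (SMAD4) and low genes 32, 2 and 0. Keeping outlier spots, and leaving out X, moved no main result past the limits. No paired analysis was possible because each antibody has 1 biological replicate, and none could be left out. The SMAD1/5 input was dim, under 3 times its local background at the median.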
